A study of Homo sapiens with 16 samples.

Results

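HPB-ALL was compared with CUTLL1 and KOPTK1 for its RNA response to CRISPR guides against lnrCXCR4, a long non-coding RNA named for the chemokine receptor gene CXCR4. The comparison took 10 of the 16 libraries of the series, namely all those made with guides. The 6 libraries made with antisense oligonucleotides (ASO) were left out. For each gene, the response of a line is the log2 fold change of the libraries with a targeting guide (sgRNA) over those with a non-targeting guide (NTG). The quantity reported is the response in HPB-ALL minus the mean of the responses in CUTLL1 and KOPTK1, called the difference below. A positive difference can be a larger rise or a smaller fall in HPB-ALL, and a negative one a smaller rise or a larger fall.

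The 3 lines were established from human T-ALL, the acute lymphoblastic leukaemia of T cells. T-ALL arises from thymocytes, the developing T cells of the thymus, and usually keeps their surface receptors, recombinase genes and transcription factors. NOTCH1 and MYC drive growth in much of this disease, and the chemokine receptor CXCR4 holds leukaemia cells near stromal cells that make its ligand. Growing blasts import glutamine, cystine and other amino acids through membrane carriers, many of which are induced by the transcription factor ATF4 when amino acids run short.

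HPB-ALL (HpbALL or HBP in the labels) had 2 sgRNA and 2 NTG libraries. CUTLL1 and KOPTK1 each had 2 sgRNA libraries and 1 NTG library, so a single control carries each of those responses and has no SD. The test assumes that each lone control varies like the libraries of the other groups, because its own scatter cannot be measured. All libraries came from cells infected with lentivirus carrying CRISPR components and grown in RPMI with serum. The titles number the targeted libraries as sgRNA 1 and 2, whereas the descriptions call them replicates 1 and 2. They were used as replicates, and nothing in the labels says that they came from separate cultures. The p-values therefore rest on the scatter of single libraries, and that scatter can be of technical origin. If the numbers stand for 2 different guides, differences between the guides are part of the same scatter. Time after infection is not given in the sources used here, and neither is whether the lines were handled together, so line and handling cannot be told apart.

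The libraries held 34547469 to 58929718 recovered reads, and each level given below is a normalised read count as deposited, to be compared between libraries for 1 gene but not between genes. No entry of the table is named for the lncRNA (0 entries), so the labels are not checked by their target. All 12 T-lineage markers were detected in every line. Their summed level was 220168 and 232385 in HPB-ALL sgRNA libraries, against 391726 and 399423 in HPB-ALL NTG libraries. It was 234178 to 282087 in the sgRNA libraries of the other lines, against 312103 and 358079 in their controls. In bulk RNA, fewer cells of a type and less RNA per cell cannot be told apart. In a set of 46 genes that read at least 1000 in every CUTLL1 and KOPTK1 library and at most 2% of that in HPB-ALL, the HPB-ALL sgRNA libraries read a median of 0.063% and 0.088% of the other lines' mean level, and the NTG libraries 0.181% and 0.073%. The same percentages are given below for some genes with HPB-ALL sgRNA levels near 0, and the part of such traces in their values was not tested.

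Guide responses were broad in each line. By limma on log2(value + 1), with Benjamini-Hochberg adjustment over the 14069 genes whose mean normalised count reached 20, 9956 genes (70.8%) changed in HPB-ALL, 8611 (61.2%) in CUTLL1 and 8906 (63.3%) in KOPTK1 at an adjusted p under 0.05. The difference passed the same threshold for 5012 genes (35.6%), being higher in HPB-ALL for 2388 (17.0%) and lower for 2624 (18.7%). It was beyond 2-fold for 421 higher and 506 lower genes, and beyond 4-fold for 115 and 196. Higher genes were 47.6% of the calls here, and 65.5% when edgeR was run on the recovered reads without a filter on low values. Across genes, which are not independent replicates, the SD of the response was 0.972 in HPB-ALL, 0.895 in CUTLL1 and 0.927 in KOPTK1 on the log2 scale. Against CUTLL1 alone 4249 genes (30.2%) passed, and against KOPTK1 alone 4345 (30.9%). A total of 1119 genes (7.95%) were higher against both lines and 1364 (9.70%) lower against both, although these comparisons share the HPB-ALL libraries.

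**Figure D1:**
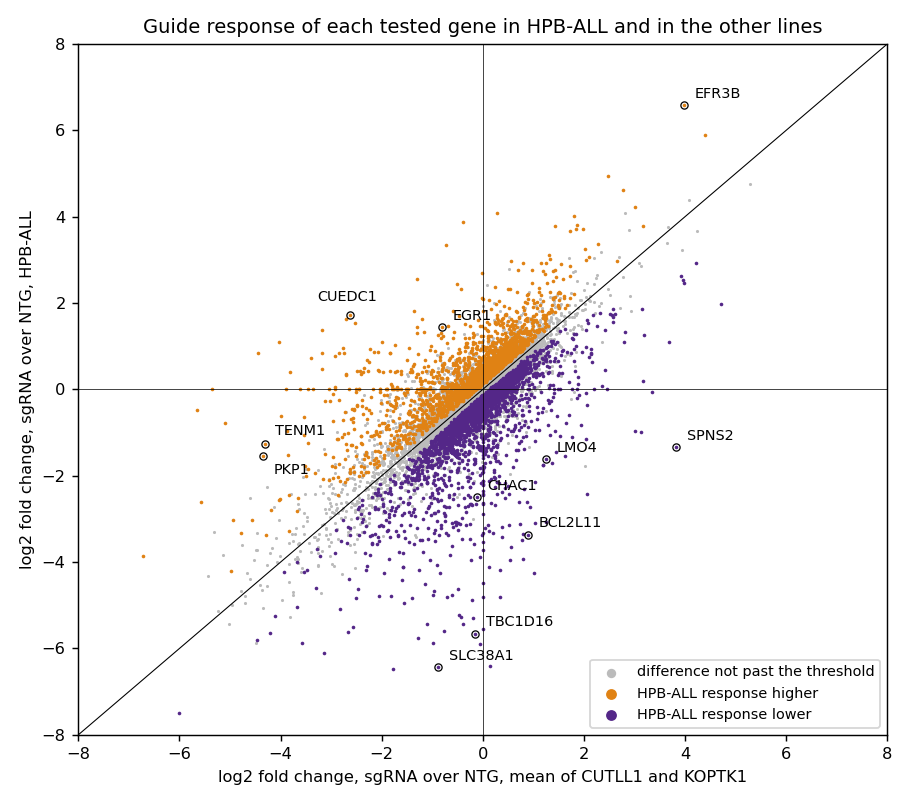
Each point is 1 of the 14069 tested genes, with its log2 guide response in HPB-ALL on the vertical axis and the mean response of CUTLL1 and KOPTK1 on the horizontal axis. Orange and purple points are the 2388 higher and 2624 lower differences past the threshold, the diagonal marks equal responses, and points along the horizontal zero line include genes at 0 in HPB-ALL.

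The largest class of called differences was that of responses in the same direction in all 3 lines. Of the 14069 genes, 12034 were detected in every line, meaning a mean of 20 or more in at least 1 arm of each. Among these, 2150 differences were higher and 2320 lower, and in 2010 and 2168 of them both HPB-ALL sgRNA libraries lay beyond all 4 sgRNA libraries of the other lines, each taken relative to its own controls. Over all tested genes such separation occurred in 26.1% above and 26.5% below. In 1146 of the higher and 1138 of the lower genes the response had passed in the same direction in all 3 lines. It was larger in HPB-ALL in 1528 of these (733 rises and 795 falls) and smaller in 756 (343 rises and 413 falls). In 279 higher and 307 lower genes only the HPB-ALL response passed, and in 198 and 221 only those of both other lines. Calls opposite to both other lines were found for 38 genes that rose in HPB-ALL and 77 that fell there. In 8 higher and 14 lower genes no line's response passed. The remaining 481 higher and 563 lower genes had other mixes of calls. Among these were genes called in opposite directions in HPB-ALL and in 1 of the other lines.

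Genes of amino acid supply and the ATF4 response had the highest share of lower differences of any list, 77.3%. Of 22 tested members (of 23 listed), 17 had a lower difference and 0 a higher one, against 18.7% and 17.0% of all genes, and the median difference was −0.53, against 0.00 over all genes. Against both other lines taken singly, 13 members were lower, against 9.70% of all genes. In HPB-ALL 17 members fell and 2 rose, where 37.1% and 33.7% of all genes did. In CUTLL1 8 fell and 7 rose (31.1% and 30.1% of all genes), and in KOPTK1 13 fell and 6 rose (32.9% and 30.4%). In this and later lists, members other than the 2 with the smallest p were chosen for mention after their values were seen. Every later list count is to be read against the 17.0% higher and 18.7% lower of all genes.

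SLC38A1, a sodium-coupled carrier of glutamine and other neutral amino acids, had the largest lower difference among genes detected in every line. It read 56.6 and 52.3 in the HPB-ALL sgRNA libraries, against 4804 and 4818 in the HPB-ALL NTG libraries. It read 14822 and 15337 with sgRNA against 24809 with NTG in CUTLL1, and 13058 and 14150 with sgRNA against 28070 with NTG in KOPTK1. The sgRNA libraries of HPB-ALL were thus far below all other guide libraries, the lowest of which was an HPB-ALL control, and averaged 0.296% of the other lines' mean, against 26.2% in the HPB-ALL controls. The response was −6.44 in HPB-ALL, −0.72 in CUTLL1 and −1.05 in KOPTK1, a difference of −5.56 (SE 0.066, adjusted p 1.29e-09). CHAC1, which degrades glutathione and is a known ATF4 target, read 51.1 and 49.98 with sgRNA against 301 and 275 with NTG in HPB-ALL, while CUTLL1 read 132 and 101 with sgRNA against 102 with NTG and KOPTK1 328 and 329 with sgRNA against 437 with NTG. The difference was −2.37 (SE 0.19, adjusted p 5.1e-05), with a fall in HPB-ALL and responses of 0.17 and −0.41 that did not pass in CUTLL1 and KOPTK1.

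The capitals in the following sequences, shown because these are the 3 lowest members whose promoter window holds the motif, mark TGATGNAA on either strand. TGATGNAA is written from the composite element bound by ATF4 with C/EBP factors. The windows run from 250 bases before to 50 bases after the gene start, 5′ to 3′ along the gene, and were taken from RefSeq on GRCh38.p14: SLC38A1 at chr12:46266467-46266766 on the minus strand (1 of 2 listed starts), CHAC1 at chr15:40953221-40953520 on the plus strand and SLC7A1 at chr13:29595639-29595938 on the minus strand.
SLC38A1: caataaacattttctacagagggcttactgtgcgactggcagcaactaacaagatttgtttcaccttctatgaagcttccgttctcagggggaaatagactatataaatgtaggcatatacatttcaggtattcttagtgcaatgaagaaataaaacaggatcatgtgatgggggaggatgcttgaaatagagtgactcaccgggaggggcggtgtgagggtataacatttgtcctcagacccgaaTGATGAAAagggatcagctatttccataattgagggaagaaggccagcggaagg
CHAC1: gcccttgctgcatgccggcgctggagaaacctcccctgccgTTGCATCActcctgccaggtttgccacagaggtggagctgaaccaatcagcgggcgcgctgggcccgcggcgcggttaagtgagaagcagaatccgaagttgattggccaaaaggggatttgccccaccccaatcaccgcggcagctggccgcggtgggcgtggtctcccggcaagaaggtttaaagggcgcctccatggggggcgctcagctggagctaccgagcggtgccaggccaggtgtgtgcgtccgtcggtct
SLC7A1: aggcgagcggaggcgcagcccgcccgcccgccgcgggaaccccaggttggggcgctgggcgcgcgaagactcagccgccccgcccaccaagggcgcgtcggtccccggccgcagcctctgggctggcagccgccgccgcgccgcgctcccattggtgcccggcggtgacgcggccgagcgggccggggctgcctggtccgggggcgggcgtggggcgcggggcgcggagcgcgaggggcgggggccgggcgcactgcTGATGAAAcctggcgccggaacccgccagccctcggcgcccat

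The motif begins 4 bases before the start of SLC38A1, 209 bases before that of CHAC1, where it is read on the opposite strand as TTGCATCA, and at base 7 after the start of SLC7A1. At least 1 window held it in 7 of the 20 listed genes with a promoter (35%) and in 1217 of all 27305 genes with one (4.46%). By window, this was 7 of 32 and 1270 of 35116 (21.9% and 3.62%). The other holders were ATF3, ASNS, SLC3A2 and SLC1A5, of which ATF3 and ASNS had no difference past the threshold. A match describes these letters only. The list was chosen to hold ATF4-related genes, so its share describes that choice and not the guide response.

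The remaining carriers and enzymes moved less. SLC7A11, the cystine and glutamate exchanger, read 240.1 and 246 with sgRNA against 1931 and 1956 with NTG in HPB-ALL, and 171 and 157 with sgRNA against 445 with NTG in CUTLL1, and 326 and 420.0 with sgRNA against 707 with NTG in KOPTK1. It fell in every line, by more in HPB-ALL, with a difference of −1.81. SLC38A2, a second glutamine carrier, read 30965 and 32890 with sgRNA against 43626 and 43620 with NTG in HPB-ALL, and 27256 and 27422 with sgRNA against 20819 with NTG in CUTLL1, and 31040 and 33094 with sgRNA against 23171 with NTG in KOPTK1. It fell in HPB-ALL and rose in both other lines, with a difference of −0.88. MTHFD2, the mitochondrial folate enzyme, did the same: it read 9481 and 9712 with sgRNA against 14538 and 14807 with NTG in HPB-ALL, and 12852 and 12650 with sgRNA against 11191 with NTG in CUTLL1, and 15102 and 15686 with sgRNA against 12895 with NTG in KOPTK1, a difference of −0.83 (SE 0.041, adjusted p 4.52e-06). The neutral amino acid exchanger SLC1A5 followed the same directions (−0.29 in HPB-ALL, 0.28 in CUTLL1 and 0.14 in KOPTK1).

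Members that fell in all 3 lines but further in HPB-ALL were the pseudokinase gene TRIB3 (difference −0.74), the cationic carrier SLC7A1 (−0.70) and ATF4 itself (−0.53). ATF4 read 11153 and 10662 with sgRNA against 18252 and 18008 with NTG in HPB-ALL, and 14890 and 14305 with sgRNA against 17409 with NTG in CUTLL1, and 21824 and 20033 with sgRNA against 23215 with NTG in KOPTK1, so its HPB-ALL sgRNA libraries were below all other guide libraries. The serine enzymes SHMT2 and PHGDH had differences of −0.69 and −0.52. The stress gene SESN2 rose in every line, by 0.37 in HPB-ALL and by 1.33 and 0.75 in CUTLL1 and KOPTK1. The members that did not pass were ASNS (−0.33), DDIT3 (−0.22), ATF3 (−0.07), DDIT4 (0.09) and PSAT1 (0.40). ASNS encodes asparagine synthetase, which makes the amino acid that asparaginase therapy depletes in this disease, and its response was −0.45 in HPB-ALL, 0.18 in CUTLL1 and −0.44 in KOPTK1.

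**Figure D2:**
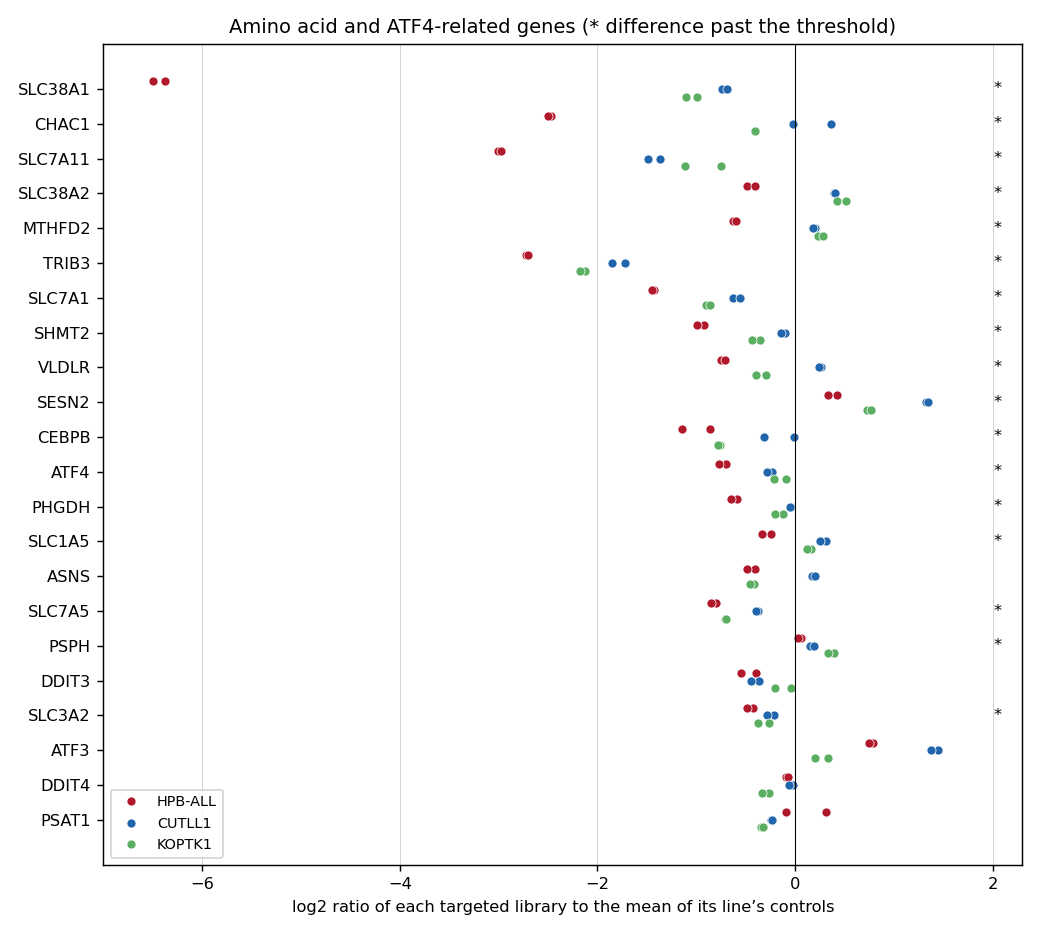
Each point is the log2 ratio of 1 sgRNA library to the mean of its line's NTG libraries, for the 22 tested amino acid and ATF4-related genes, ordered by the difference, and an asterisk marks the 17 past the threshold. The HPB-ALL points of SLC38A1 lie beyond −6, while those of CUTLL1 and KOPTK1 lie between −0.69 and −1.10.

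Further lower differences were found in genes of varied known roles. TBC1D16, a GTPase-activating protein for Rab proteins, read 3.99 and 3.08 with sgRNA against 242 and 212 with NTG in HPB-ALL, and 1949.6 and 1974 with sgRNA against 1779.6 with NTG in CUTLL1, and 576 and 655 with sgRNA against 834 with NTG in KOPTK1, a difference of −5.51 (SE 0.17, adjusted p 3.86e-07). The HPB-ALL sgRNA libraries were near 0, and every other guide library read 212 or more. The HPB-ALL sgRNA and NTG libraries averaged 0.273% and 17.5% of the other lines' mean. The membrane protein gene STOM read 8.78 and 6.92 with sgRNA against 322 and 353 with NTG in HPB-ALL, with responses of −0.62 in CUTLL1 and −0.26 in KOPTK1 and a difference of −4.82. ATP6V0A1, a subunit of the proton pump of acidic organelles, read 1.60 and 3.84 with sgRNA against 47.6 and 58.1 with NTG in HPB-ALL, where it fell, while it rose in KOPTK1 (difference −4.72). As shares of the other lines' mean, the HPB-ALL sgRNA and NTG levels were 1.36% and 58.4% for STOM and 0.43% and 8.35% for ATP6V0A1.

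PMEPA1, an inhibitor of SMAD signalling, read 32.7 and 40.8 with sgRNA against 1666 and 1584 with NTG in HPB-ALL, and 320.5 and 316 with sgRNA against 778 with NTG in CUTLL1, and 1080.1 and 1140.4 with sgRNA against 2133 with NTG in KOPTK1. It fell in all 3 lines, with a difference of −4.32. BMP4, a secreted ligand of the TGF-beta superfamily, read 13.6 and 9.996 with sgRNA against 332 and 355 with NTG in HPB-ALL and had a difference of −4.15. C9orf47, an open reading frame of unassigned role, read 0 and 1.54 with sgRNA against 29.1 and 19.05 with NTG in HPB-ALL and had a difference of −4.48, or −2.79 with a pseudocount of 5.

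Some of the strongest lower genes were nearly silent in HPB-ALL to begin with. BCL2L11, which encodes the pro-apoptotic protein BIM, read 2.39 and 6.92 with sgRNA against 55.5 and 49.5 with NTG in HPB-ALL, and 5943 and 5951 with sgRNA against 3897 with NTG in CUTLL1, and 4638 and 4802 with sgRNA against 2084 with NTG in KOPTK1. It fell in HPB-ALL and rose in KOPTK1 (1.18), and in CUTLL1 the response was 0.61 and did not pass (difference −4.26, SE 0.40, adjusted p 0.000126). Both CUTLL1 sgRNA libraries read above the CUTLL1 control. The test used 1 variance per gene over all lines, so the scatter of the low HPB-ALL values also entered the CUTLL1 result. The receptor S1PR3 for sphingosine 1-phosphate read 3.19 and 2.31 with sgRNA against 47.6 and 43.8 with NTG in HPB-ALL, with a difference of −4.21. The HPB-ALL sgRNA and NTG libraries averaged 0.102% and 1.15% of the other lines' mean for BCL2L11, and 0.151% and 2.52% for S1PR3. The sgRNA levels are therefore near the trace level given above, the NTG levels are above it, and the part of such traces in the result was not tested.

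Opposite calls included the sphingosine 1-phosphate exporter SPNS2, which read 10.4 and 12.3 with sgRNA against 31.7 and 28.6 with NTG in HPB-ALL. CUTLL1 read 123 and 129.8 with sgRNA against 9.76 with NTG, and KOPTK1 373 and 414 with sgRNA against 22.3 with NTG. SPNS2 thus fell in HPB-ALL while it rose in both other lines, a difference of −5.16 (SE 0.23, adjusted p 2.76e-06). LMO4, a LIM-only cofactor of transcription, read 252 and 244 with sgRNA against 736 and 780.0 with NTG in HPB-ALL, and 4682 and 4497 with sgRNA against 1769.9 with NTG in CUTLL1, and 206 and 214 with sgRNA against 94.9 with NTG in KOPTK1, with a difference of −2.86 (SE 0.088, adjusted p 3.86e-07). SOGA2 read 3735 and 3656 with sgRNA against 10228 and 9831 with NTG in HPB-ALL, and its difference was −2.88 (−3.90 against CUTLL1 and −1.86 against KOPTK1).

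The receptor phosphatase gene PTPRK (−4.12) and the Schlafen family gene SLFN5 (−3.66) also fell in HPB-ALL and rose in both others. PTPRK read 2.39 and 1.54 with sgRNA against 25.1 and 22.9 with NTG in HPB-ALL and SLFN5 2.39 and 5.38 with sgRNA against 33.04 and 26.7 with NTG, while SLFN5 read between 5802 and 14432 in the other lines. The HPB-ALL sgRNA and NTG libraries averaged 0.0502% and 0.613% of the other lines' mean for PTPRK, and 0.0373% and 0.287% for SLFN5. The sgRNA levels are below the median trace and the NTG levels above it, and the part of such traces in these opposite calls was not tested.

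**Figure D3:**
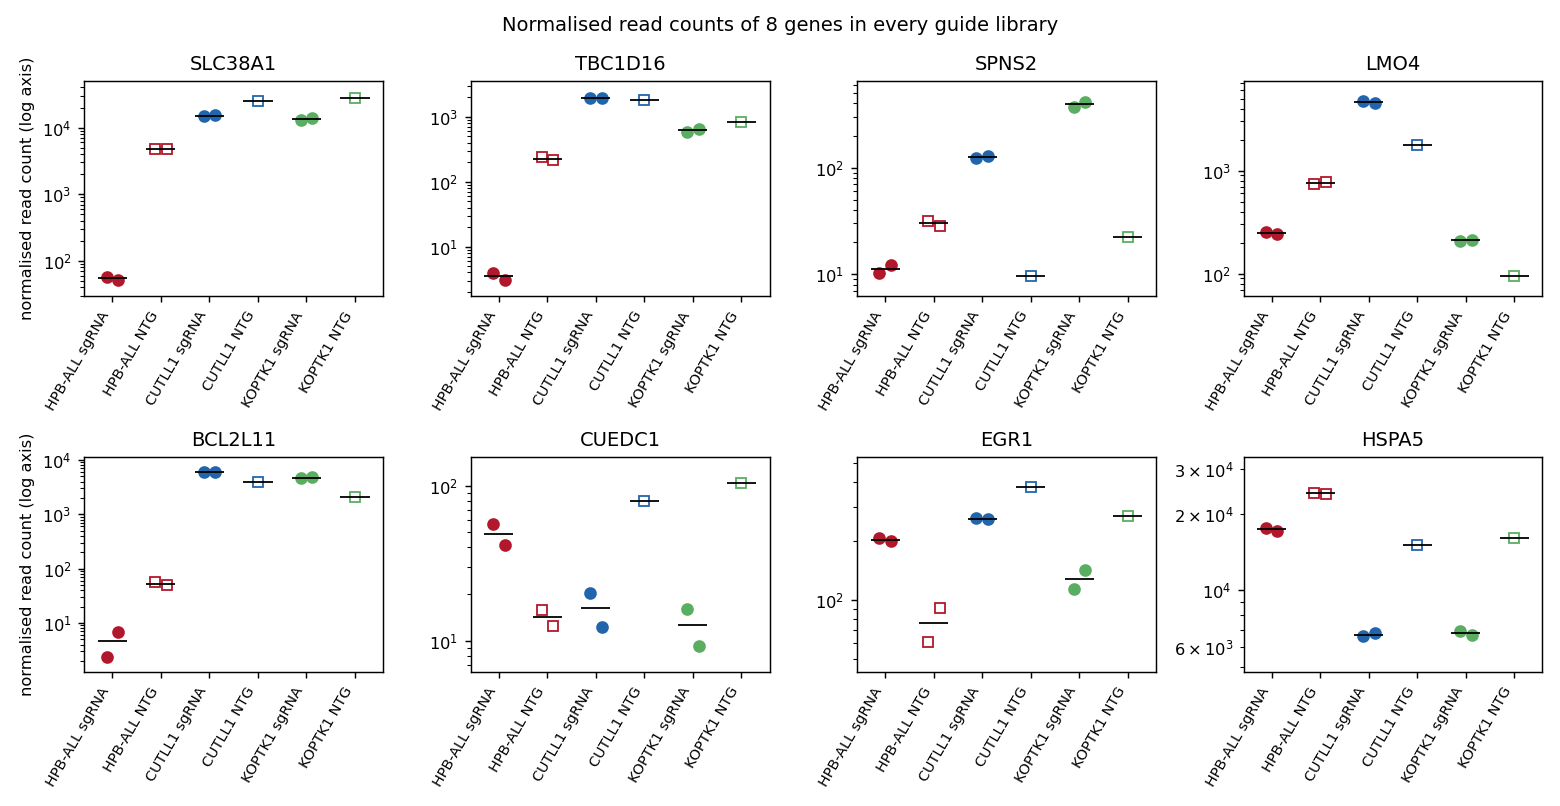
Normalised read counts on a log axis in each guide library for 8 genes, with filled circles for sgRNA, open squares for NTG, red for HPB-ALL, blue for CUTLL1, green for KOPTK1 and a line at each group mean. SLC38A1, TBC1D16 and BCL2L11 are lowest in HPB-ALL sgRNA libraries, SPNS2 and LMO4 move in opposite directions, CUEDC1 and EGR1 are higher with sgRNA than with NTG in HPB-ALL only, and HSPA5 falls least in HPB-ALL.

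Higher differences among genes detected in every line included genes that rose in HPB-ALL and fell in both other lines. CUEDC1, a gene with a ubiquitin-binding CUE domain, read 56.6 and 41.5 with sgRNA against 15.9 and 12.4 with NTG in HPB-ALL, and 20.3 and 12.3 with sgRNA against 79.03 with NTG in CUTLL1, and 16.01 and 9.21 with sgRNA against 105 with NTG in KOPTK1. Its HPB-ALL sgRNA libraries were above the HPB-ALL controls, and the sgRNA libraries of both other lines were below theirs, a difference of 4.35 (SE 0.44, adjusted p 0.000181). The membrane serine protease gene TMPRSS13 read 111 and 108 with sgRNA against 29.1 and 31.4 with NTG in HPB-ALL and had responses of −1.54 and −1.18 elsewhere, a difference of 3.18. The brush-border myosin MYO1A (2.43) and the Rac regulator CHN1 (2.03) likewise rose in HPB-ALL and fell in both others.

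NRXN2, a neurexin, and RASSF4, a RAS-association domain gene, rose in HPB-ALL and fell in KOPTK1, and their CUTLL1 responses did not pass. NRXN2 read 68.6 and 43.1 with sgRNA against 6.61 and 10.5 with NTG in HPB-ALL, a difference of 3.86. RASSF4 read 73.4 and 86.9 with sgRNA against 13.2 and 17.1 with NTG in HPB-ALL, a difference of 2.77. EFR3B, a plasma-membrane scaffold of a phosphoinositide kinase, rose in every line and furthest in HPB-ALL: it read 689 and 687 with sgRNA against 6.61 and 5.71 with NTG in HPB-ALL, and 1214 and 1269 with sgRNA against 100.5 with NTG in CUTLL1, and 347 and 353 with sgRNA against 16.5 with NTG in KOPTK1, a difference of 2.62 (SE 0.15, adjusted p 1.06e-05).

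In TENM1, PIK3AP1 and PKP1 the higher difference was a smaller fall. The plakophilin gene PKP1 read 2418 and 2403 with sgRNA against 7128 and 6944 with NTG in HPB-ALL, and 82.9 and 70.1 with sgRNA against 1607 with NTG in CUTLL1, and 2.46 and 1.15 with sgRNA against 53.3 with NTG in KOPTK1, a difference of 2.80. The adaptor gene PIK3AP1 had a difference of 2.97, and 1.76 with a pseudocount of 5, and its KOPTK1 sgRNA libraries read 0 and 1.15. TENM1, a teneurin, read 16.8 and 19.2 with sgRNA against 56.8 and 35.2 with NTG in HPB-ALL and had a difference of 3.05. CEP128, a centriole gene, had a difference of 2.53 that lay mostly in KOPTK1, where it read 71.4 and 72.5 with sgRNA against 1362 with NTG. Against KOPTK1 alone it was 4.67, and against CUTLL1 alone 0.38.

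Among genes below the detection level in at least 1 line, the extremes were genes hardly detected in HPB-ALL or in another line. The chemokine receptor genes CCR2 and CCR8 read 0 to 0.952 in all HPB-ALL libraries and fell in the other lines. CCR2 read 4.60 and 4.74 with sgRNA against 273 with NTG in CUTLL1, and CCR8 3.69 and 6.90 with sgRNA against 481 with NTG in KOPTK1. Their differences (5.36 and 5.16), like that of TTC16 (5.28), describe the other lines' falls, and edgeR did not call CCR2 or CCR8 (adjusted p 1 and 0.985). The immunoglobulin heavy chain gene IGHM read 18.4 and 13.8 with sgRNA against 777 and 822 with NTG in HPB-ALL and 0 in every CUTLL1 and KOPTK1 library, so its fall has no counterpart there, and edgeR did not call the difference (adjusted p 1). SALL3 read 2.39 and 0 with sgRNA against 169 and 143 with NTG in HPB-ALL and INHBE 6.38 and 1.54 with sgRNA against 259 and 256 with NTG. SALL3 was high in CUTLL1 and near 0 in KOPTK1, and INHBE was at most 3.90 in both.

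Transcription factors of the T lineage were mostly lower against the mean of the other lines. Of 23 tested members (of 24 listed), 16 had a lower and 1 a higher difference (69.6% and 4.35%), and the median was −0.31. Against both other lines taken singly, 6 members were lower and 0 higher, where 9.70% and 7.95% of all genes were. Members mainly fell in every line, with 19 members down in HPB-ALL, 15 in CUTLL1 and 17 in KOPTK1, where 37.1%, 31.1% and 32.9% of all genes fell. BACH2, a repressor of lymphocyte differentiation, read 159.6 and 136 with sgRNA against 987 and 958 with NTG in HPB-ALL, and 2055 and 2118 with sgRNA against 2581 with NTG in CUTLL1, and 516 and 594 with sgRNA against 1119 with NTG in KOPTK1, a difference of −2.05 (SE 0.12, adjusted p 1.06e-05). TCF7, the WNT-pathway factor of early T-cell commitment, read 46772 and 45423 with sgRNA against 88047 and 84573 with NTG in HPB-ALL, and 40440 and 39096 with sgRNA against 47937 with NTG in CUTLL1, and 76341 and 74762 with sgRNA against 71782 with NTG in KOPTK1. It fell in HPB-ALL and CUTLL1, did not pass in KOPTK1, and differed by −0.81 (SE 0.048, adjusted p 1.08e-05). Without the CUTLL1 control, which leaves KOPTK1 as the one other line, 9 members were lower. IKZF2 (−1.05), IKZF1 (−0.53), TOX (−0.51) and GATA3 (−0.22) were lower, and IKZF3 was the 1 higher member (0.70), with a smaller fall in HPB-ALL than in CUTLL1.

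The T-cell receptor list had 14 lower and 2 higher differences among 21 tested members (of 22 listed), or 66.7% and 9.52%, with a median of −0.22. Against both other lines taken singly, 7 members were lower and 0 higher, where 9.70% and 7.95% of all genes were. Of its 21 tested members, 20 fell in HPB-ALL, 19 in CUTLL1 and 18 in KOPTK1, where 37.1%, 31.1% and 32.9% of all genes fell. Without the KOPTK1 control, which leaves CUTLL1 as the one other line, 6 were higher and 10 lower. LCK, the kinase that starts receptor signalling, read 1635 and 1629 with sgRNA against 16548 and 16591 with NTG in HPB-ALL, and 3738 and 3867 with sgRNA against 22684 with NTG in CUTLL1, and 11944 and 11629 with sgRNA against 37519 with NTG in KOPTK1. It fell in every line, further in HPB-ALL than in either other, with a difference of −1.22 (SE 0.040, adjusted p 4.96e-07). SLA, an adaptor that lowers receptor levels, read 575 and 558 with sgRNA against 7982 and 7768 with NTG in HPB-ALL and differed by −1.46. UBASH3A (−1.23) and the adaptor LCP2 (−0.98) were lower against both lines, whereas the kinase FYN rose in CUTLL1 and KOPTK1 and had a response of 0.01 in HPB-ALL that did not pass (difference −0.60). The receptor constant gene TRAC was higher (1.24), and it read 14771 and 14456 with sgRNA against 29066 with NTG in CUTLL1, and 17.2 and 13.8 with sgRNA against 142 with NTG in KOPTK1, with KOPTK1 levels far below those of both other lines. Of the 12 T-lineage markers, 9 had a lower difference (75%) and 0 a higher one. Against both other lines taken singly, 4 were lower, where 9.70% of all genes were.

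Thymocyte surface and recombinase genes did not lean one way. Among 20 tested, 6 were higher and 5 lower, and the median was 0.07. No member rose in any line, where 33.7%, 30.1% and 30.4% of all genes rose in HPB-ALL, CUTLL1 and KOPTK1. In the same order 19, 20 and 20 members fell, where 37.1%, 31.1% and 32.9% of all genes did. Without the KOPTK1 control, 8 were lower and the median was −0.06. CD28, the T-cell co-stimulator, read 5380.5 and 5586 with sgRNA against 19021 and 18877 with NTG in HPB-ALL, and 665 and 685 with sgRNA against 6330.2 with NTG in CUTLL1, and 1351 and 1316 with sgRNA against 8154 with NTG in KOPTK1, so its fall was smallest in HPB-ALL (difference 1.13, SE 0.047, adjusted p 1.67e-06). CD4 read 27582 and 27082 with sgRNA against 28258 and 28150 with NTG in HPB-ALL, a response of −0.05 that did not pass, while it fell in CUTLL1 and KOPTK1, with responses of −0.44 and −1.52 (difference 0.93). CD8B was higher by 1.13, and the pan-leukocyte phosphatase PTPRC (−0.90) and RAG2 (−0.58) lower. CD1A, CD2, CD7 and CD8A did not pass (−0.12, −0.11, 0.08 and 0.13).

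Transcription factors linked to T-ALL, not all of them oncogenes, had 6 lower and 1 higher difference among 10 tested members (of 20 listed). The median was −0.62, but only 5 were detected in every line, all of them lower. Besides LMO4, these were ETV6 (difference −1.02, SE 0.079, adjusted p 4.48e-05), BCL11B (−0.70), RUNX1 (−0.54) and MYB (−0.24). ETV6 read 459.6 and 452 with sgRNA against 1834 and 1712 with NTG in HPB-ALL. LMO2 (−2.30) and TAL1 (4.08) were low in HPB-ALL and CUTLL1 in both arms. LMO2 read 4.79 and 6.15 with sgRNA against 21.1 and 17.1 with NTG in HPB-ALL, and at least 5924 in each KOPTK1 library. The part of traces of other lines in its HPB-ALL levels was not tested.

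NOTCH receptors and targets were mixed, with 7 higher (35%) and 5 lower (25%) among 20 tested (of 23 listed). All genes gave 17.0% and 18.7%. The list had a median of 0.07 whose sign depended on the processing. There were 4 higher and 3 lower without the CUTLL1 control, and 3 lower without the second HPB-ALL control. CR2, a direct NOTCH target in T-ALL lines, read 5896 and 5883 with sgRNA against 18321 and 17616 with NTG in HPB-ALL, and 27.6 and 25.6 with sgRNA against 415 with NTG in CUTLL1, and 1089 and 1071 with sgRNA against 3144 with NTG in KOPTK1. Its difference of 1.12 (SE 0.068, adjusted p 1.21e-05) came from CUTLL1, since it was −0.07 against KOPTK1 alone. MYC, the main growth target of NOTCH in this disease, read 4477 and 4343 with sgRNA against 24338 and 23602 with NTG in HPB-ALL, and 1931 and 1804 with sgRNA against 10466 with NTG in CUTLL1, and 5764 and 5569 with sgRNA against 17124 with NTG in KOPTK1. It fell in all 3 lines, with a difference of −0.40 (SE 0.054, adjusted p 0.00075), which was −0.85 against KOPTK1 and 0.04 against CUTLL1. NOTCH1 and NOTCH3 rose in HPB-ALL and KOPTK1 and fell in CUTLL1, and their differences were 0.20 and 0.27.

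The MYC network and ribosome biogenesis list had 14 lower and 1 higher difference among 26 tested members (53.8% and 3.85%), with a median of −0.18. Against both other lines taken singly, 5 members were lower and 1 higher, where 9.70% and 7.95% of all genes were. Without the KOPTK1 control 8 were lower, and 9 were lower without the first HPB-ALL control or the second HPB-ALL sgRNA library. RRP12, a factor of ribosome assembly, read 1590.1 and 1496 with sgRNA against 3461 and 3492 with NTG in HPB-ALL, and 2865 and 2901 with sgRNA against 4407 with NTG in CUTLL1, and 2623 and 2556 with sgRNA against 4496 with NTG in KOPTK1, a difference of −0.47 (SE 0.052, adjusted p 0.000299). The polyamine enzyme ODC1 read 21288 and 21208 with sgRNA against 29621 and 29844 with NTG in HPB-ALL, and its difference was −0.43 (SE 0.042, adjusted p 0.000146), with a response of 0.03 in CUTLL1 that did not pass. The MAX partners MXD1 and MXD3 rose in every line and least in HPB-ALL (differences −0.53 and −0.44), while MXD4 rose most there (0.80).

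Among cell cycle genes, 9 of 17 G1 cyclins and CDK inhibitors tested were lower and 2 higher (median −0.21), with 4 higher without the KOPTK1 control. E2F2 read 5968 and 5763 with sgRNA against 9500.1 and 9304 with NTG in HPB-ALL, and 16412 and 16487 with sgRNA against 13459 with NTG in CUTLL1, and 9197 and 9412 with sgRNA against 11431 with NTG in KOPTK1, a difference of −0.68 (SE 0.041, adjusted p 1.14e-05). The inhibitor gene CDKN1B rose in CUTLL1 and KOPTK1 and had a response of −0.02 in HPB-ALL that did not pass (difference −0.64). CDKN1A rose in every line, by 0.98 in HPB-ALL and 3.02 and 1.05 in CUTLL1 and KOPTK1. The pocket protein gene RBL2 differed by −0.43. Mitosis genes had 10 lower and 2 higher differences among 23 (43.5% and 8.70%, median −0.10). HMMR (−0.40) and KIF20A (−0.37) rose in both other lines while their responses of 0.02 and 0.02 in HPB-ALL did not pass. Replication genes had 5 higher and 3 lower among 23 (21.7% and 13.0%, median 0.05), near the 17.0% and 18.7% of all genes. These included GINS2 (0.53) and CDC6 (0.36). The higher ones numbered 3 without the CUTLL1 control or the second HPB-ALL control, 9 without the KOPTK1 control and 12 after quantile scaling. The lower ones numbered 1 without either lone control, the first CUTLL1 sgRNA library, the second HPB-ALL control or the second HPB-ALL sgRNA library, and 1 after quantile scaling or by edgeR.

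**Figure D4:**
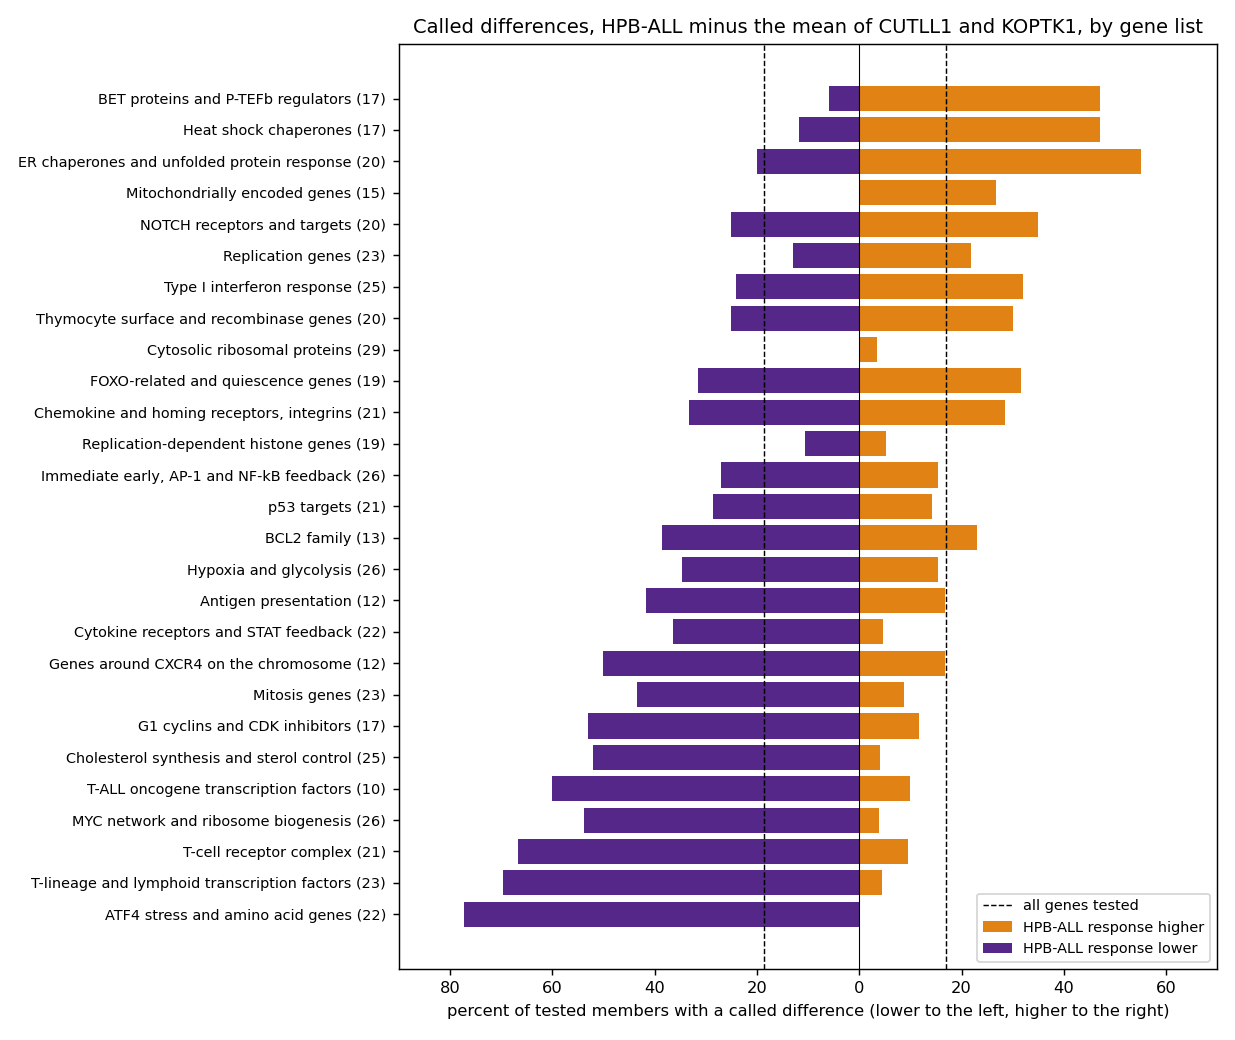
Bars give the percent of tested members of each gene list (number tested in brackets) whose difference passed the threshold, higher in HPB-ALL to the right and lower to the left, and dashed lines mark the 17.0% and 18.7% of all genes tested. Cell type marker lists are not drawn. Of the lists drawn, amino acid, T-lineage factor and T-cell receptor lists extend furthest to the left. Furthest to the right among them are endoplasmic reticulum chaperones with unfolded protein response genes, heat shock chaperones and P-TEFb regulators.

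Sterol synthesis genes were mostly lower in HPB-ALL, as smaller rises or as falls. Of 25 tested (of 26 listed), 13 differences were lower and 1 higher (median −0.27). Against both other lines taken singly, 10 were lower and 0 higher, where 9.70% and 7.95% of all genes were. SQLE, an enzyme that commits squalene to sterols, read 13673 and 13977 with sgRNA against 11955 and 11938 with NTG in HPB-ALL, and 12477 and 12541 with sgRNA against 5979 with NTG in CUTLL1, and 8287 and 8243 with sgRNA against 5353 with NTG in KOPTK1, rising in every line and least in HPB-ALL (difference −0.64, SE 0.036, adjusted p 8.39e-06). HMGCS1 (−0.32 in HPB-ALL, 0.63 in CUTLL1 and 0.22 in KOPTK1) and MSMO1 (−0.16 in HPB-ALL, 0.86 in CUTLL1 and 0.39 in KOPTK1) fell in HPB-ALL and rose in the others. The 1 higher member, ABCA1, was at 0 to 0.952 in HPB-ALL.

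The list of endoplasmic reticulum chaperones and unfolded protein response genes went the other way, with 11 higher and 4 lower among 20 tested and a median of 0.26. Without the first HPB-ALL control, 7 were higher. HSPA5, the main chaperone of this compartment, read 17592 and 17132 with sgRNA against 24117 and 23943 with NTG in HPB-ALL, and 6614 and 6764 with sgRNA against 15005 with NTG in CUTLL1, and 6922 and 6678 with sgRNA against 15990 with NTG in KOPTK1. It fell in every line and least in HPB-ALL, a difference of 0.73 (SE 0.041, adjusted p 8.26e-06). The disulfide isomerase PDIA6 read 14155 and 14376 with sgRNA against 17047 and 17380 with NTG in HPB-ALL, and 7805 and 7641 with sgRNA against 14096 with NTG in CUTLL1, and 7369.6 and 7757 with sgRNA against 13715 with NTG in KOPTK1, a difference of 0.59 (SE 0.044, adjusted p 3.81e-05). HSP90B1 (0.47) and CALR (0.32) also fell least in HPB-ALL. The 4 lower members were HERPUD1 (−0.58), EDEM1 (−0.53), the stress sensor ERN1 (−0.34) and SEL1L (−0.29), of which HERPUD1, EDEM1 and SEL1L serve degradation of misfolded proteins. Cytosolic heat shock chaperones had 8 higher and 2 lower among 17 tested (median 0.09), led by FKBP4 (difference 0.42, SE 0.042, adjusted p 0.000163) and DNAJB1 (difference 0.40, SE 0.048, adjusted p 0.000432). HSF1, the factor that induces this family, was lower (−0.26). Without the CUTLL1 control or the second HPB-ALL control, 5 of this list were higher.

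Regulators of the elongation kinase P-TEFb and BET proteins had 8 higher and 1 lower difference among 17 tested (median 0.16), and 5 were higher without the second HPB-ALL control. HEXIM1, the inhibitor that holds P-TEFb inactive, read 16716 and 16037 with sgRNA against 2562 and 2716 with NTG in HPB-ALL, and 11189 and 11145 with sgRNA against 3897 with NTG in CUTLL1, and 14141 and 14502 with sgRNA against 3741 with NTG in KOPTK1. It rose in every line and most in HPB-ALL, a difference of 0.91 (SE 0.050, adjusted p 7.17e-06). SERTAD1, a cofactor of E2F transcription factors, read 2789 and 2624 with sgRNA against 262 and 262 with NTG in HPB-ALL, and 1136 and 1038 with sgRNA against 309 with NTG in CUTLL1, and 985 and 967 with sgRNA against 145 with NTG in KOPTK1, a difference of 1.09 (SE 0.089, adjusted p 5.55e-05). The HEXIM1 paralogue HEXIM2 fell in every line and least in HPB-ALL (1.14). BRD2 (0.22) and CDK9 (0.16) were higher.

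In the BCL2 family 5 of 13 tested members were lower (38.5%) and 3 higher (23.1%), against 18.7% and 17.0% of all genes. The family had a median of −0.01 whose sign depended on the processing. The survival gene BCL2 read 878 and 921 with sgRNA against 3035 and 2961 with NTG in HPB-ALL, and 2142 and 2249 with sgRNA against 3363 with NTG in CUTLL1, and 1499 and 1589 with sgRNA against 3676 with NTG in KOPTK1, falling furthest in HPB-ALL (difference −0.80, SE 0.064, adjusted p 5.04e-05). The death-promoting genes BMF (−0.89) and BBC3 (−1.48) rose in both other lines. BMF rose in HPB-ALL by 0.41, and the BBC3 response there was −0.07 and did not pass. BAD (0.40), BIK (0.56) and BID (0.20) were higher, and MCL1 rose by about the same amount in each line (0.75 in HPB-ALL, 0.75 in CUTLL1 and 0.79 in KOPTK1). Among p53 targets 6 of 21 were lower and 3 higher (28.6% and 14.3%, median −0.14). GADD45A, a stress gene, read 1508 and 1580.2 with sgRNA against 196 and 186 with NTG in HPB-ALL, and 775 and 731 with sgRNA against 316 with NTG in CUTLL1, and 216 and 252 with sgRNA against 86.2 with NTG in KOPTK1, a difference of 1.67 (SE 0.13, adjusted p 3.97e-05), and the exonuclease gene AEN differed by −0.81.

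Cytokine receptors and their feedback genes had 8 lower and 1 higher difference among 22 tested (median −0.23). IL10RA, a chain of the interleukin-10 receptor, read 2362 and 2325 with sgRNA against 1226 and 1209.5 with NTG in HPB-ALL, and 769.9 and 747 with sgRNA against 190.3 with NTG in CUTLL1, and 169.9 and 144 with sgRNA against 31.00 with NTG in KOPTK1, rising least in HPB-ALL (difference −1.20, SE 0.12, adjusted p 0.00014), and STAT5B, which transmits interleukin-7 signals, differed by −0.39. Immediate early and NF-kB feedback genes had 7 lower and 4 higher among 26 (median −0.23, with a sign that depended on the processing). EGR1, an immediate early factor, read 206 and 199 with sgRNA against 60.8 and 90.5 with NTG in HPB-ALL, and 262 and 258 with sgRNA against 379 with NTG in CUTLL1, and 113 and 142 with sgRNA against 268 with NTG in KOPTK1. It rose in HPB-ALL and fell in KOPTK1, with a CUTLL1 response of −0.54 that did not pass (difference 2.25, SE 0.25, adjusted p 0.000284), whereas NFKB2 fell in HPB-ALL and rose in CUTLL1 (difference −0.80, SE 0.065, adjusted p 5.55e-05). Without the KOPTK1 control, 12 of these genes were lower, and edgeR called 8 higher.

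Chemokine and homing receptors had 7 lower and 6 higher differences among 21 tested members (of 24 listed), or 33.3% and 28.6%, against 18.7% and 17.0% of all genes. Of these members 14 were detected in every line, of which 7 were lower and 3 higher. The higher ones of the whole list numbered 3 without the CUTLL1 or the KOPTK1 control or by edgeR, and 0 by DESeq2. The gut-homing receptor CCR9 read 55.8 and 56.1 with sgRNA against 139 and 130.5 with NTG in HPB-ALL, and 10875 and 10996 with sgRNA against 10674 with NTG in CUTLL1, and 17511 and 17439 with sgRNA against 6605 with NTG in KOPTK1, a difference of −1.97 (SE 0.058, adjusted p 3.86e-07). It fell in HPB-ALL, where its controls were far lower than those of the other lines, and rose in KOPTK1. The part of traces of other lines in the HPB-ALL levels of CCR9 was not tested. The selectin ligand gene SELPLG differed by −0.97 and the integrin gene ITGAL by −1.48, both falling in every line. The egress receptor S1PR1 was at 0 in every HPB-ALL library, so its difference of 2.17 describes the other lines.

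CXCR4 read 33366 and 32078 with sgRNA against 32379 and 31151 with NTG in HPB-ALL, values that overlap. Its difference was −0.22 (SE 0.049, adjusted p 0.00867), with −0.07 against CUTLL1 and −0.37 against KOPTK1, and it was −0.07 (adjusted p 0.359) without the KOPTK1 control. Among 12 tested members of the list of genes around CXCR4 on the chromosome (of 17 listed, CXCR4 included), 6 were lower and 2 higher (median −0.07), with 3 lower without the KOPTK1 control or the second HPB-ALL control. The annealing helicase gene ZRANB3 fell in HPB-ALL and rose in CUTLL1 (difference −0.61, SE 0.084, adjusted p 0.000844), and R3HDM1 rose in every line, least in HPB-ALL (difference −0.28, SE 0.043, adjusted p 0.00152). TMEM163 (1.11) and LCT (0.43) were the higher members.

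Mitochondrially encoded genes took 2.50% and 2.52% of all counts in the HPB-ALL sgRNA libraries, against 1.83% and 1.84% in the HPB-ALL NTG libraries. The share was 2.51% and 2.52% against 2.17% in CUTLL1, and 3.0% and 3.25% against 2.48% in KOPTK1. All 15 genes rose in HPB-ALL, 10 in CUTLL1 and 13 in KOPTK1, where 33.7%, 30.1% and 30.4% of all genes rose. A higher difference was found for 4 of 15 and a lower one for 0 (median 0.15). MT-RNR2, the large ribosomal RNA of the organelle, differed by 0.33 (SE 0.054, adjusted p 0.0021), and MT-ND2 by 0.26. The number higher ran between 1 without the CUTLL1 control and 15 by edgeR without a filter, with 11 without the KOPTK1 control or the first KOPTK1 sgRNA library. The part of the mitochondrial share in the differences of other genes was not tested. Cytosolic ribosomal protein genes had 1 higher and 0 lower among 29 (median 0.06). The count was 6 and 7 without the KOPTK1 control or the first KOPTK1 sgRNA library, and 15 by edgeR without a filter. Replication-dependent histone genes, which are near-identical copies and may share reads, had 1 higher and 2 lower among 19 (5.26% and 10.5%). There were 5 higher without the CUTLL1 control. Both named by the rule depended on CUTLL1, with HIST1H2BK at −0.82 (−2.06 against CUTLL1 and 0.43 against KOPTK1) and HIST1H2AC at −0.70 (−1.42 and 0.01).

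Interferon genes had 8 higher and 6 lower differences among 25, or 32% and 24%, against 17.0% and 18.7% of all genes. Their median was −0.02, with a sign that depended on the processing. There were 5 higher without the CUTLL1 control or the first HPB-ALL control, and 3 lower without the KOPTK1 control. IFIT3 fell in every line and furthest in HPB-ALL (difference −2.10, SE 0.17, adjusted p 5.57e-05), as did MX2 (−0.71), whereas MX1 was higher (1.70) and its HPB-ALL response of −0.32 did not pass. Antigen presentation genes had 5 lower and 2 higher among 12 (median −0.16), with HLA-B at −0.48 and HLA-E at 0.27. There were 2 lower when either HPB-ALL control or the second HPB-ALL sgRNA library was left out, and 3 without the second CUTLL1 sgRNA library. Genes of the hypoxia and glycolysis list had 9 lower and 4 higher among 26 (34.6% and 15.4%, median −0.05). There were 2 higher when either CUTLL1 sgRNA library, either HPB-ALL sgRNA library or the first HPB-ALL control was left out. The hexokinase gene HK1 differed by −0.46 (SE 0.037, adjusted p 5.34e-05) and the glycolysis regulator PFKFB3 by 0.71 (SE 0.057, adjusted p 5.34e-05). FOXO-related genes had 6 higher and 6 lower among 19 (31.6% each, median −0.11). ARRDC3 read 3322 and 3490.3 with sgRNA against 3049 and 2968 with NTG in HPB-ALL, and 2196 and 2299 with sgRNA against 861 with NTG in CUTLL1, and 934 and 1175 with sgRNA against 256 with NTG in KOPTK1, rising in both other lines with a response of 0.18 in HPB-ALL that did not pass (difference −1.53, SE 0.12, adjusted p 5.22e-05), and KLF6 showed the same pattern (−0.66).

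Markers of other cell types were mostly too low to test. Of 12 B-lineage markers 4 were tested, and MS4A1 and PAX5, which mark B cells, did not reach the minimum. Of the 4 tested, 2 had a higher difference and 1, IGHM, a lower one (median −0.02). In HPB-ALL 4 fell, in CUTLL1 3 and in KOPTK1 3, where 37.1%, 31.1% and 32.9% of all genes fell. IGLL1, a surrogate light chain of early B cells, read 1879 and 1625 with sgRNA against 10350 and 10071 with NTG in HPB-ALL, and differed by 1.47 (SE 0.12, adjusted p 6.37e-05). The summed level of the 12 B-lineage markers was 1792 and 2066 in HPB-ALL sgRNA libraries, against 11428 and 11654 in HPB-ALL NTG libraries, and IGLL1 made up most of it. It was 313 to 552 in the sgRNA libraries of the other lines, against 899.6 and 4657 in their controls, and 2 to 9 of the 12 markers were at 0 in each library. Of the myeloid markers 1 was tested (AIF1, −0.03) and did not pass, and of the cytotoxic markers 3 were tested (PRF1 at −0.30) and 0 passed. The erythropoietin receptor gene EPOR (0.47) passed, a call lost in 16 of 24 alternatives. The epithelial cadherin gene CDH1 (−2.97) passed and was lost by edgeR and DESeq2, and without the second KOPTK1 sgRNA library 4 epithelial and fibroblast markers were lower. What part other cells had in the results was not tested.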

How the data were processed

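RNA-seq of 3 cell lines, strand-specific per the labels' protocols, was used as deposited, in 1 table of 57820 genes. The authors deposited a signal per gene and library, the normalised read count. Per the submitters' processing notes the tools were STAR 1.4.2 and DESeq2 (version not given) and the build hg19. In the values themselves, every one (100%) was a whole multiple of 1 step per library within 1e-06, as reads divided by 1 size factor would be, and this gave back whole reads and so the depth.

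The main test was limma 3.58.1 (R 4.3.3) on log2(value + 1), with 1 mean for each of 6 groups of line and guide, 10 libraries, 4 residual degrees of freedom, a mean-dependent prior variance, genes with a mean of 20 or more, and Benjamini-Hochberg adjustment at 0.05. A fold change on this scale understates that of low genes. Recovered reads were also tested with edgeR 4.0.16 (quasi-likelihood) and DESeq2 1.42.0.

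Genes named were the 10 largest differences each way among genes detected in every line without overlap of library ratios, up to 5 opposite calls each way, up to 2 members per list with the smallest p, up to 3 each way among genes not detected in every line, and CXCR4. Some genes that this rule named are not reported here. The comparison, members and lists were chosen with earlier results of these data known. Replicates of a group differed by more than counting noise (chi-square of 2.49 to 6.75 per gene with at least 50 reads, where 1 is counting noise). Differences between libraries 1 and 2 correlated little from group to group (−0.013 to 0.064), and the main test did not pair libraries by number. A shared effect of guide or batch was not tested. The alternatives are given in the closing section. Antisense oligonucleotide libraries entered only as alternatives.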

Additional observations from a re-analysis of the deposited data

Results flagged for a closer look

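The guide response differed between HPB-ALL and the mean of CUTLL1 and KOPTK1 for 5012 genes by limma, a test of the difference itself. In 9 named genes the calls also pointed in opposite directions in HPB-ALL and in both other lines. Those that rose in HPB-ALL and fell in the others were CUEDC1 (difference 4.35), TMPRSS13 (3.18), MYO1A (2.43) and CHN1 (2.03), on the log2 scale. Those that fell in HPB-ALL and rose in the others were SPNS2 (−5.16), PTPRK (−4.12), SLFN5 (−3.66), SOGA2 (−2.88) and LMO4 (−2.86). PTPRK and SLFN5 counted as detected in HPB-ALL through the NTG libraries only. Their NTG levels there were 0.613% and 0.287% of the other lines' mean, and the part of traces of other lines in these 2 calls was not tested. No group held more than 2 libraries, so single libraries were not examined for standing apart within a group.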

How the results depend on the processing

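Across 24 alternatives (22 planned or added with both guides, and each guide number alone), 2123 values of 89 named genes were recomputed. The direction and the side of the threshold stayed in 1967, the call was lost in 147 and the sign turned in 9. Of the 87 named genes that passed, 74 passed in every alternative with both guides and 22 in all that tested them. The alternative with the other lines' responses taken from their ASO libraries was chosen after seeing the data.

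With guide 1 alone, which leaves 1 residual degree of freedom, limma called 159 genes higher and 321 lower, and with guide 2 alone 54 and 100. Against CUTLL1 alone and against KOPTK1 alone each gave 0 calls, with 5173 and 5193 genes at an unadjusted p under 0.05 for guide 1, and 5075 and 5231 for guide 2. For the difference from both lines these were 5599 and 5540. Fewer libraries are in these fits, and the amino acid list had 7 and 3 lower members with guide 1 and guide 2 alone. By edgeR on the recovered reads without a filter, 1717 genes were lower, with 32899 genes tested. Leaving out 1 library gave 1729 to 2673 higher and 1888 to 2874 lower genes, 3057 to 4980 called against CUTLL1 and 3070 to 4650 against KOPTK1, and responses of 9031 to 10277 genes in HPB-ALL, 7542 to 9039 in CUTLL1 and 8584 to 8739 in KOPTK1. Leaving out the lone control of CUTLL1 or KOPTK1 drops that line, and the comparison is then with the other line only.

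With the replicate block, 2451 genes were higher and 2726 lower, 4622 and 4595 passed against CUTLL1 and KOPTK1, and 10131, 8767 and 8963 responded in HPB-ALL, CUTLL1 and KOPTK1. EPOR was the 1 named gene lost (0.44, adjusted p 0.0689). The labels do not say what a shared number stands for, so this fit is not read as a paired design.

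The sign turned for CR2 (−0.07), HIST1H2BK (0.43) and HIST1H2AC (0.01) without the CUTLL1 control and for MYC (0.04) without the KOPTK1 control. Their ranges over libraries left out were −0.07 to 2.3 for CR2, −2.06 to 0.43 for HIST1H2BK, −1.42 to 0.01 for HIST1H2AC and −0.85 to 0.04 for MYC. AIF1, which did not pass, was 0.03 after quantile scaling, 0 by edgeR, 0.05 by edgeR without a filter, and −0.11 to 0.05 with 1 library left out. The cause was not tested, except that the comparison then rests on the other line. The median difference over all genes lay between −0.066, by DESeq2, and 0.04, by edgeR without a filter. List medians turned sign or reached 0 in at least 1 alternative for the thymocyte, homing, CXCR4-region, NOTCH, interferon, immediate early, replication, histone, hypoxia, BCL2 family, ribosomal protein and epithelial marker lists. Higher genes were 47.6% of calls, against 51.5% after quantile scaling, 56.4% by edgeR and 65.5% by edgeR without a filter. Precision is limited by 1 control library in each of CUTLL1 and KOPTK1.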
